A study of Mus musculus with 10 samples.

Results

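The genes described here encode the inflammatory cytokines TNF, IL-6 and the shared subunit of IL-12 and IL-23, both TNF receptors, members of the NF-kB transcription factor family and inhibitors that shut NF-kB down. They were chosen by gene name from a list of 10, of which 9 were among the 17279 genes of the deposited table and all 9 passed the filter on low counts, with 16949 genes tested in all. Il23a, which encodes the remaining subunit of IL-23, was not analysed here. The RNA came from lamina propria macrophages that were sorted as CX3CR1-GFP+ cells from the peeled mucosa of the whole small intestine, 24 h after surgery. The groups were 5 sham libraries and 5 pMCAO libraries. pMCAO is permanent occlusion of the middle cerebral artery, a mouse model of ischaemic stroke, and sham mice had a control operation. The labels give the genotype C57BL6/J for both groups, name no reporter allele although the gate used GFP, and state neither age nor sex. They call the libraries biological replicates. Replicate 1 of each group carries the word pool in its name, without a statement of what was pooled.

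TNF released by macrophages binds TNF receptor 1, found on most cells, and TNF receptor 2, found mainly on immune and endothelial cells. Both signal to NF-kB, a family of dimers held in the cytoplasm by IkB proteins until a kinase marks those for destruction. NF-kB then switches on cytokine genes and, in the same wave, the genes of its own inhibitors, so that a stimulus gives a pulse of activity. Resident macrophages of the gut are known for muted cytokine output when they meet microbial products.

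Library size was lower after pMCAO, with 6430643 to 28672285 counts against 18894151 to 60665972 in sham. All 10 macrophage markers examined were measured, and their summed level was 2706 to 7206 CPM (counts scaled to library size) in sham and 3875 to 7683 in pMCAO. Transcripts of other cells were present as well. Mast cell markers summed to 2166 to 20546 CPM in sham and 462 to 6752 in pMCAO, with 6 of 6 lower in pMCAO by a median log2 fold change of -1.73. Of these, Mcpt1, Mcpt2 and Mcpt4, all mast cell protease genes, had an unadjusted p under 0.05 at log2 fold changes of -1.86, -1.82 and -1.86 (edgeR FDR = 0.922 each). B and plasma cell markers summed to 1017 to 25555 CPM in sham and 1310 to 28261 CPM in pMCAO. Epithelial markers summed to 716 to 1459 CPM in sham and 249 to 1821 CPM in pMCAO. Of these 12 genes, 8 were lower and 4 higher in pMCAO, at log2 fold changes from -1.78 to 1.17. The lowest was Olfm4, a marker of crypt stem cells, at -1.78 (edgeR FDR = 0.922). Its groups did not overlap, as was the case for 0.985% of all genes tested. The 8 stromal and endothelial markers split into 4 higher and 4 lower in pMCAO, at log2 fold changes from -1.32 to 1.59. The lowest was the pericyte gene Pdgfrb, at -1.32 with an unadjusted p under 0.05 (edgeR FDR = 0.922). T cell and innate lymphoid cell markers were lower in pMCAO for 9 of 9 genes by edgeR, with a median of -0.64. Mean log2 CPM was instead higher in pMCAO for Cd3e (3.31 in sham, 3.93 in pMCAO) and Il7r (4.81 and 4.89). The list summed to 211 to 496 CPM in sham and 215 to 361 in pMCAO. Cd4 had the highest mean log2 CPM in it, 7.19 in sham and 7.02 in pMCAO. Which cells the Cd4 transcripts came from was not tested. Sham 5 and pMCAO 4 held 1756 and 4461 CPM of Xist, against 1.39 to 4.92 in the other 8 libraries, so the members' fold changes and the relations between them were also computed without these libraries. Sham 5 also had the lowest macrophage sum and the highest mast cell sum. The part of these differences in the results was not tested, and in bulk samples fewer cells of a type cannot be told apart from less RNA per cell.

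The 250 bases before the start site were read from RefSeq (build GRCm38.p6) for the 8 members with an entry, and searched on both strands for GGANNTTCC, a short form of the sequence that NF-kB binds, with reverse complement GGAANNTCC. The letters occurred in 4 of the 8 members and in 1113 (4.12%) of the 27025 genes in the table, or 3.59% of its 32851 promoters. Tnfaip3 had 2 promoter entries, of which the upstream one held a match and the other none. Nfkbia, the gene of the inhibitor IkBa, held 2 matches, while Tnfaip3, Tnf and Il6 held 1 each. These 4 promoters are shown because they held a match, and those without one are not printed. Capitals mark the match, the strand is that of the gene, and a match is a description of letters and not of a bound site. The Nfkbia stretch lies at chr12:55492648-55492897 (minus strand), the Tnf stretch at chr17:35202008-35202257 (minus strand) and the Il6 stretch at chr5:30012864-30013113 (plus strand). For Tnfaip3 the window is that of the upstream RefSeq start, which lies inside the gene as GENCODE M21 annotates it, and only the 137 bases outside annotated exons are printed, at chr10:19015411-19015547 (minus strand).
Nfkbia: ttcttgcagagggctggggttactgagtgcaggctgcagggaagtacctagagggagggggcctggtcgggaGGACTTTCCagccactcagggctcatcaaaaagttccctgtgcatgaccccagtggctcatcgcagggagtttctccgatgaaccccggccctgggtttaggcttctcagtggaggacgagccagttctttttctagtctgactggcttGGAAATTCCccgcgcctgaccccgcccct
Tnfaip3: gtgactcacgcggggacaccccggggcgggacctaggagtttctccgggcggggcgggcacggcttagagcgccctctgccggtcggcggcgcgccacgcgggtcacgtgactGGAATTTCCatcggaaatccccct
Tnf: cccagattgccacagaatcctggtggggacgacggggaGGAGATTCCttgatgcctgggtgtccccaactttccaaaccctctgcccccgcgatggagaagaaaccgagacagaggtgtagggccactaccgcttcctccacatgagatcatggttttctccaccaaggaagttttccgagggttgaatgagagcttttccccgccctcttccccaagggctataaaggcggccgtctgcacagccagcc
Il6: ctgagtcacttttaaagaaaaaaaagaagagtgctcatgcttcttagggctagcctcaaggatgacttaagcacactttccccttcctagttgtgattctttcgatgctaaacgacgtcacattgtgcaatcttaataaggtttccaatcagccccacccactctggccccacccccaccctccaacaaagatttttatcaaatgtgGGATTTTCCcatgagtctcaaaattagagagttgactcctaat
Counted from the RefSeq start site, the matches began at positions -178 and -29 in Nfkbia, -24 in Tnfaip3, -212 in Tnf and -43 in Il6. For Nfkbia and Tnfaip3 a match thus lay within 30 bases of that start. No match was found in these windows of Tnfrsf1a, Tnfrsf1b, Rel or Il12b.

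Levels were compared between genes as CPM per kb of exon, averaged over the 10 libraries. Exon length was the union of all annotated exons of a gene, so the order of genes depends on the annotation. The inhibitor genes stood highest, with Nfkbia at 91.0 CPM per kb and Tnfaip3, which encodes the ubiquitin-editing inhibitor A20, at 45.3. Nfkbia was above Tnfaip3 in 10 of 10 libraries and above 97.0% of the 16864 tested genes with a known exon length. Tnfrsf1a (29.3 CPM per kb), Rel (27.5) and Tnfrsf1b (25.4) followed, and neighbours among these 3 kept that order in 5 of 10 libraries, so that they could not be ranked. Tnf had 15.8 CPM per kb and Nfkb1 12.5, with Tnf the higher in 7 of 10 libraries. The exon length was 1639 bases for Tnf and 12061 for Nfkb1. Without division by length Nfkb1 was the higher, at means of 147 CPM in sham and 154 in pMCAO. Tnf then had 27.4 and 24.3 CPM, so the order of these 2 genes rests on the length used. The cytokine genes Il6 (1.48 CPM per kb) and Il12b (0.673) were far lower. Only the step from Nfkb1 to Il6 separated neighbouring genes without any overlap of their library ranges.

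**Figure D1:**
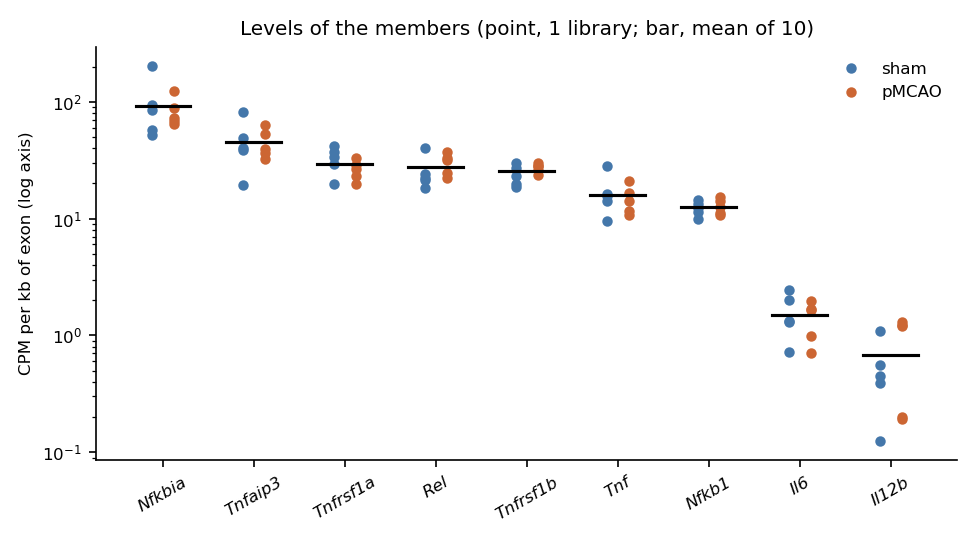
Level of each gene in CPM per kb of exon on a log axis, 1 point per library (blue, sham; orange, pMCAO) with the mean of 10 libraries as a bar. Nfkbia lies highest at a mean of 91.0, and Il6 and Il12b lie below the 7 other genes with means of 1.48 and 0.673.

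No difference between sham and pMCAO passed the test for any of the 9 members. At a false discovery rate (FDR) of 0.05 by edgeR's quasi-likelihood test, 0 of 9 were called, as were 0% of all genes tested. At an unadjusted p under 0.05 the count was again 0 of 9, where 4.71% of all genes tested passed. The libraries of the groups did not overlap for 0 of 9 members and for 0.985% of all genes. DESeq2 and limma-voom likewise called 0 of the 9. Of the members 4 were higher and 5 lower in pMCAO, with a median log2 fold change of -0.04, beside -0.01 over all genes. A missed threshold does not show equality, and the 95% intervals give the room left: for 7 members they lay within 1 log2 unit of no difference, while those of Il6 and Il12b did not.

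**Figure D2:**
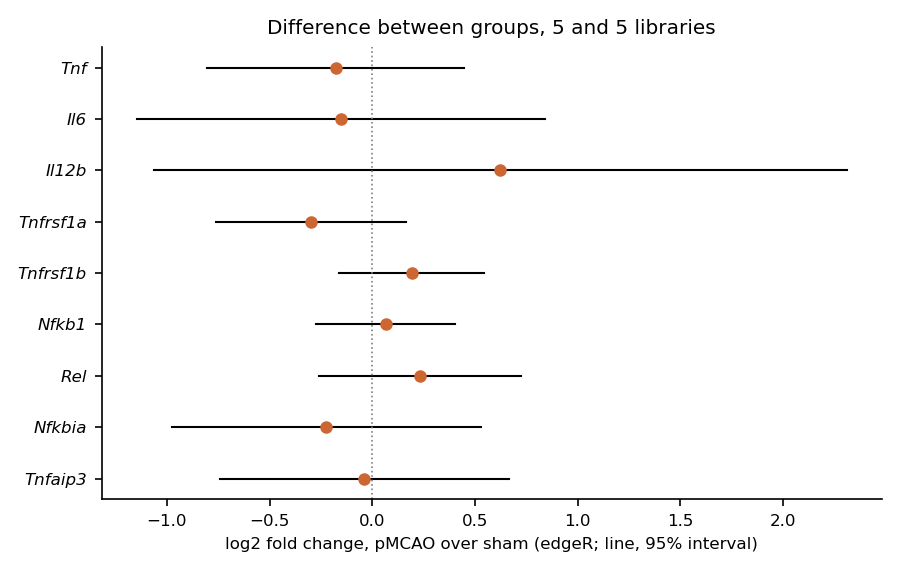
Log2 fold change of each member, pMCAO over sham, as fitted by edgeR on 5 and 5 libraries, with 95% intervals as lines. All 9 intervals cross 0, that of Nfkb1 being narrow (-0.27 to 0.40) and that of Il12b wide (-1.06 to 2.31).

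Tnf, the gene of the cytokine itself (chr17:35199381-35202007, minus strand; this and the gene coordinates that follow are from GENCODE M21 on GRCm38), was measured with 236 to 1197 counts per library. It had 26.4, 25.7, 23.3, 46.2 and 15.5 CPM in sham 1 to 5 and 34.6, 19.0, 27.1, 23.0 and 17.6 CPM in pMCAO 1 to 5. Sham 4 was the highest library and sham 5 the lowest, and every pMCAO value fell between them. The means were 27.4 ± 11.4 CPM in sham and 24.3 ± 6.85 in pMCAO (SD, n = 5 each). The log2 fold change was -0.18 (95% interval -0.81 to 0.45, FDR = 0.954), and it turned to 0.081 without sham 4.

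Il6, which encodes a cytokine of the acute phase response (chr5:30013114-30019981, plus strand), was sparse, with 17 to 458 counts. Its level was 4.85, 3.23, 3.17, 1.76 and 5.92 CPM in sham 1 to 5 and 4.10, 4.81, 1.72, 2.38 and 4.02 CPM in pMCAO 1 to 5. Both groups spread from under 2 CPM to above 4, and sham 4, the library with the most Tnf, was the lowest sham library here. The log2 fold change was -0.15 (95% interval -1.14 to 0.84, edgeR FDR = 0.977). Without the 2 libraries high in Xist it was 0.17, so that its direction was not settled.

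Il12b encodes the p40 chain shared by IL-12 and IL-23, made by activated macrophages and dendritic cells (chr11:44400063-44414033, plus strand). It had only 7 to 84 counts per library, at 0.244, 0.776, 2.16, 0.881 and 1.09 CPM in sham and 2.35, 0.376, 2.43, 2.54 and 0.393 CPM in pMCAO. The pMCAO libraries fell into 3 above 2 CPM and 2 below 0.4, and sham 3 lay close to the former. The exact Poisson interval, which covers counting error only, was 1.73 to 3.61 CPM for the highest library (pMCAO 4) and 0.098 to 0.504 CPM for the lowest (sham 1). Libraries thus differed by more than counting error, 10.4-fold between these extremes. The log2 fold change of 0.62 (95% interval -1.06 to 2.31, edgeR FDR = 0.945) ran from 0.37 without sham 1 to 1.09 without sham 3, and limma-voom gave -0.11. Dendritic cell markers summed to 246 to 577 CPM in sham and 185 to 570 CPM in pMCAO.

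Tnfrsf1a, the gene of TNF receptor 1, which carries a death domain (chr6:125349362-125362484, plus strand), stood at 87.1, 109, 95.3, 75.5 and 51.4 CPM in sham 1 to 5. In pMCAO 1 to 5 it stood at 60.0, 86.0, 73.7, 69.2 and 51.1 CPM. Replicate 5 was the lowest library of either group, and only pMCAO 2 exceeded the sham mean of 83.6 ± 21.7 CPM (SD, n = 5). The pMCAO mean was 68.0 ± 13.3 CPM, a log2 fold change of -0.30 (95% interval -0.76 to 0.16, FDR = 0.922). The value stayed negative in each of the 20 alternatives, from -0.45 to -0.19. Its unadjusted edgeR p was 0.185, and 0.0398 without sham 5, and the FDR was not passed in either.

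Tnfrsf1b, the gene of TNF receptor 2, which lacks a death domain (chr4:145213463-145246870, minus strand), had 88.1, 104, 114, 71.3 and 75.1 CPM in sham 1 to 5. The pMCAO libraries had 107, 108, 98.7, 114 and 90.4 CPM. Here sham 4 and sham 5 were the lowest of the 10, and 4 of 5 pMCAO libraries exceeded the sham mean of 90.6 ± 18.4 CPM, at a mean of 104 ± 9.07 (SD, n = 5 each). The log2 fold change was 0.19 (95% interval -0.16 to 0.55, FDR = 0.922), positive in each of the 20 alternatives from 0.093 to 0.29. Its spread within groups was among the narrowest of the members, at an SD of 0.23 log2 units.

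Nfkb1, which encodes the precursor of the p50 subunit of NF-kB (chr3:135584655-135691547, minus strand), was the steadiest member. It had 119, 148, 137, 172 and 160 CPM in sham 1 to 5 and 152, 130, 134, 171 and 183 CPM in pMCAO 1 to 5. The highest library exceeded the lowest 1.54-fold, and the SD within groups was 0.21 log2 units. Between groups the log2 fold change was 0.065 (95% interval -0.27 to 0.40, FDR = 0.972).

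Rel encodes c-Rel, an NF-kB subunit that is prominent in lymphocytes and myeloid cells and is needed for Il12b transcription (chr11:23736847-23770970, minus strand). It stood at 161, 165, 137, 300 and 181 CPM in sham 1 to 5 and at 236, 183, 168, 244 and 278 CPM in pMCAO 1 to 5. Sham 4 was the highest library, while the other 4 sham libraries lay below 4 of the 5 pMCAO libraries. The log2 fold change was 0.23 (95% interval -0.26 to 0.72, FDR = 0.925). Without sham 4 it was 0.45, with an unadjusted p of 0.027 in the edgeR fit and a call that still did not pass the FDR.

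Nfkbia, whose protein IkBa binds NF-kB and takes it out of the nucleus, is an early target of NF-kB (chr12:55489410-55492647, minus strand). It had 150, 136, 92.8, 327 and 84.1 CPM in sham 1 to 5 and 117, 143, 200.3, 111 and 104 CPM in pMCAO 1 to 5. Sham 4 stood far above all other libraries, and pMCAO 3 came next. The means were 158 ± 98.5 and 135 ± 39.4 CPM (SD, n = 5 each), and the log2 fold change was -0.22 (95% interval -0.98 to 0.53, FDR = 0.953). Leaving out sham 4 turned it to 0.21.

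Tnfaip3 (chr10:19000910-19015657, minus strand), whose product A20 edits ubiquitin chains on signalling proteins upstream of NF-kB, had the widest range of the 7 well-counted members, 4.22-fold between libraries. It had 291, 355, 141, 593 and 280 CPM in sham 1 to 5 and 286, 453, 381, 235 and 260 CPM in pMCAO 1 to 5. The sham libraries held both the highest value, sham 4, and the lowest, sham 3, and enclosed the pMCAO range. With a log2 fold change of -0.038 (95% interval -0.74 to 0.66, FDR = 0.995), it changed sign in 7 of 20 alternatives.

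**Figure D3:**
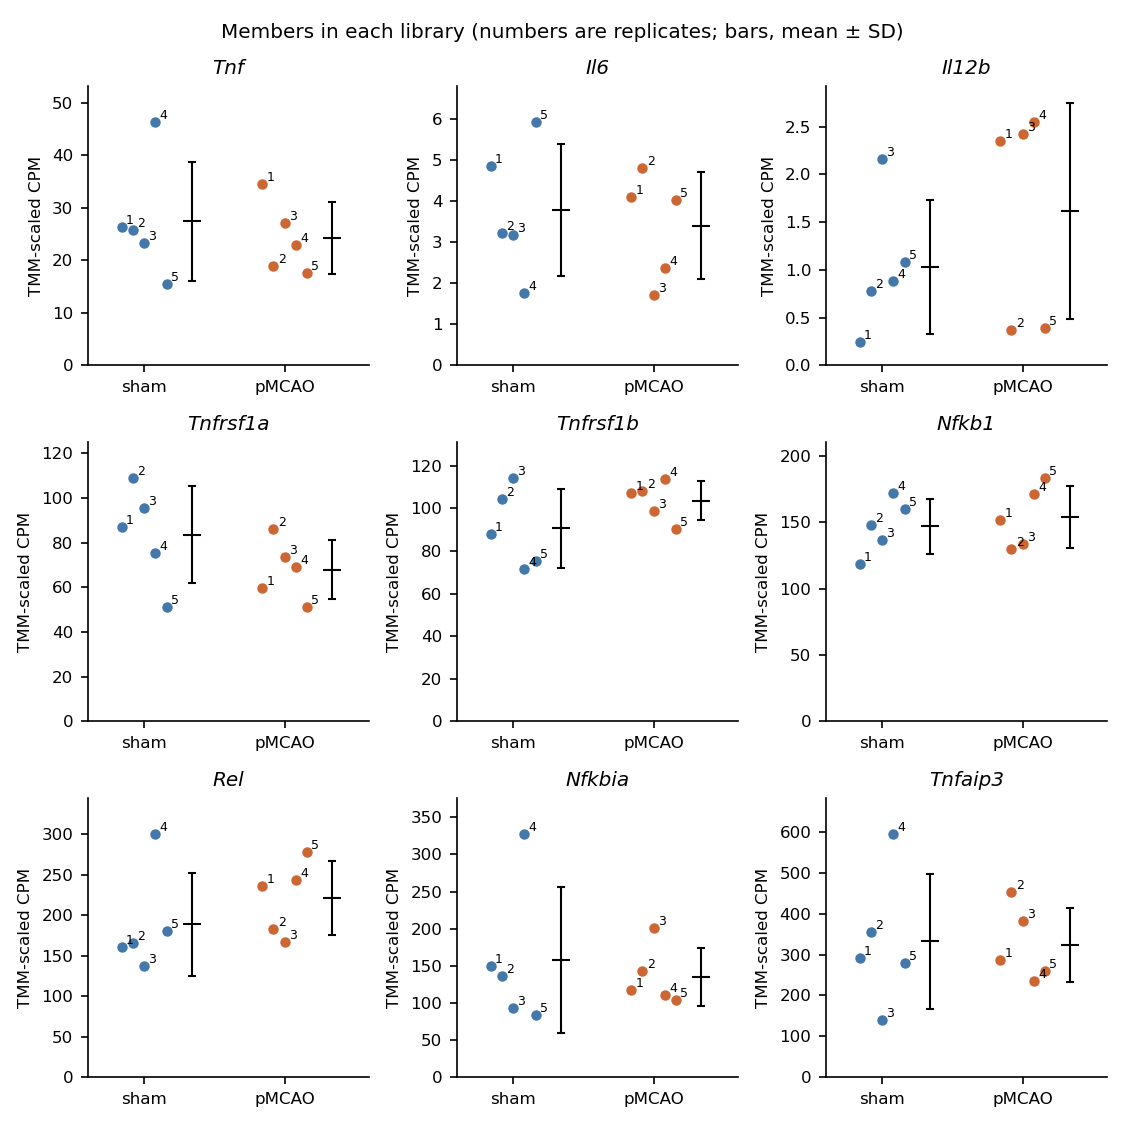
TMM-scaled CPM of each member in every library on axes that start at 0 (blue, sham; orange, pMCAO), with replicate numbers and the mean ± SD of 5 libraries. The groups overlap for each member, and sham 4 is the highest library for Tnf (46.2), Rel (300), Nfkbia (327) and Tnfaip3 (593).

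The surrounding pathway was read from gene lists, again with 0 genes of any list called at an FDR of 0.05 by edgeR. Among 11 other NF-kB subunits, IkB proteins and kinase genes, 6 were higher and 5 lower in pMCAO, at a median log2 fold change of 0.01. Nfkb2, which encodes the precursor of the p52 subunit, had the lowest value, -0.41 (unadjusted p under 0.05 by edgeR, FDR = 0.922), and Ikbkg, the scaffold of the IkB kinase, the highest, 0.25. The 19 genes of the TNF receptor complex and of TNF shedding had a median of 0.02, with 11 higher and 8 lower. They ran from -1.11 for Lta, the gene of lymphotoxin alpha, to 0.41 for Tradd, the adaptor of TNF receptor 1. The 17 negative regulators split into 10 higher and 7 lower at a median of 0.02, with Traf1 at -0.85 and Socs1 at 0.69 as extremes.

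Downstream of the cytokines, 5 IL-6 pathway genes had a median log2 fold change of -0.07, from -0.80 for Cebpb to 0.26 for the receptor gene Il6ra. The 9 genes of the IL-12 and IL-23 pathway had a median of 0.02, and Il23r, a chain of the IL-23 receptor, was the highest of them at 0.62. Il12rb2, a chain of the IL-12 receptor that is typical of T helper and natural killer cells, was the lowest of them at -0.99 (unadjusted p under 0.05 by edgeR, FDR = 0.922), beside the lower median of the T cell and innate lymphoid markers given above. The part of such cells in this value was not tested.

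The NF-kB target list, made of 20 chemokine, interleukin-1 and early response genes, had the median farthest from 0 among the 8 lists of the pathway, the mast cell markers above being farther. Lower values in pMCAO were seen for 18 of 20 genes, at a median log2 fold change of -0.66, against 8582 of 16949 genes lower and a median of -0.01 over all genes. Cxcl1, a chemokine that attracts neutrophils, had the lowest value, -1.15, Ier3 had -0.87 (unadjusted p under 0.05 by edgeR, FDR = 0.922), and Marcksl1 had the highest, 0.26. In sham 4 the list summed to 8761 CPM, where the other sham libraries had 1470 to 3772 and the pMCAO libraries 1234 to 3674. Without sham 4 the median was -0.22, with 13 of 20 genes lower. It was -0.36 with limma-voom (16 lower), -0.37 with sample quality weights (15 lower) and -0.39 with the replicate block. The genes of the list share libraries and are no independent replicates, and no gene of the list passed the FDR.

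**Figure D4:**
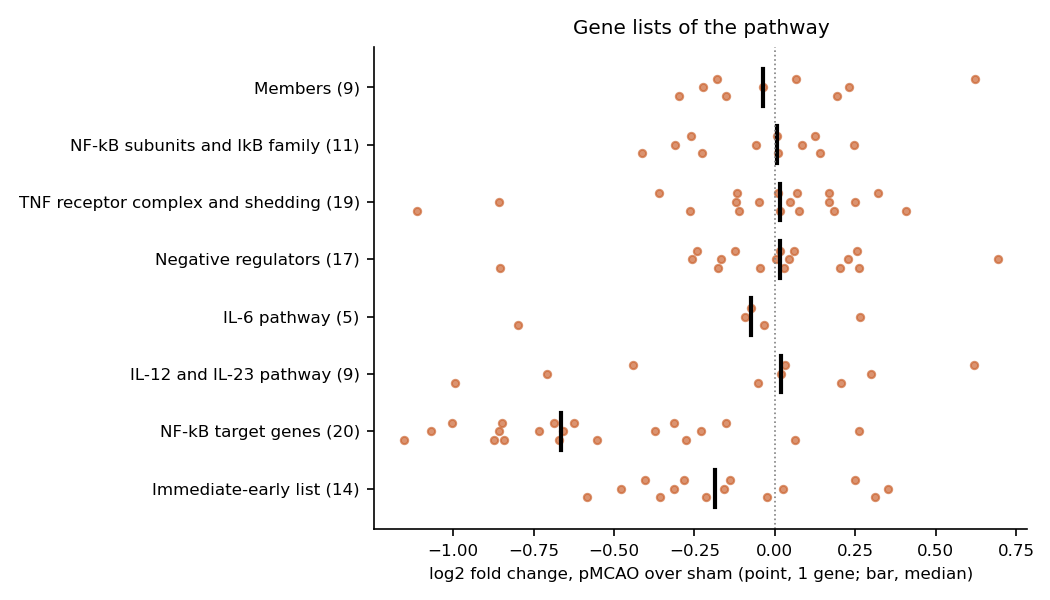
Log2 fold change, pMCAO over sham, of each gene (points) in 8 lists with the number of genes tested, and the median of each list as a bar. The NF-kB target list is centred at -0.66, while the medians of the 7 other lists lie between -0.19 and 0.02.

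Immediate-early genes such as Junb and Egr1, which respond to almost any stimulus and to tissue digestion, were set beside the members because NF-kB feedback genes are themselves fast. Their 14 genes had a median log2 fold change of -0.19, from -0.58 for Junb to 0.35 for Egr1, and their mean log2 CPM ran from 7.23 to 9.04 in sham and from 7.35 to 8.50 in pMCAO. Over the 10 libraries, 15 relations were computed on log2 CPM with Benjamini-Hochberg adjustment, and 6 passed an adjusted permutation p of 0.05 by Pearson's r and 4 by Spearman's rho.

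Nfkbia followed the immediate-early list most closely. Pearson's r was 0.97 (permutation p = 7.0e-05, adjusted p = 0.0010) and Spearman's rho 0.92 (permutation p = 0.00048, adjusted p = 0.0072), and r was 0.85 without sham 4 and pMCAO 3, the libraries farthest from the median. Leaving out any 1 library gave r of 0.93 to 0.98. The part of tissue digestion in these levels was not tested. Tnf followed the list with an r of 0.84 (permutation p = 0.0025, adjusted p = 0.019) and a rho of 0.89 (permutation p = 0.0011, adjusted p = 0.0086), and an r of 0.74 without the same pair. Tnfaip3 had an r of 0.73 (permutation p = 0.017, adjusted p = 0.043) but a rho of 0.67 (permutation p = 0.039, adjusted p = 0.097). Its r was 0.48 without that pair, and 0.55 to 0.84 leaving out any 1 library. Dropping the farthest libraries narrows the range, which can itself lower r, so these values cannot show what a relation rested on.

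Among the members, Tnfaip3 and Nfkbia, both inhibitors, varied together with an r of 0.80 (permutation p = 0.0069, adjusted p = 0.026) and a rho of 0.85 (permutation p = 0.0029, adjusted p = 0.015). The r was 0.65 without sham 3 and sham 4. Nfkb1 and Rel formed a separate pair, with an r of 0.80 (permutation p = 0.0066, adjusted p = 0.026) and a rho of 0.77 (permutation p = 0.013, adjusted p = 0.047), and an r of 0.76 without sham 1 and pMCAO 5. Tnf and Nfkbia had an r of 0.76 (permutation p = 0.012, adjusted p = 0.036) and a rho of 0.73 (permutation p = 0.020, adjusted p = 0.060). The r of this relation was 0.26 without sham 4 and sham 5, the libraries farthest from the median of Tnf, and 0.49 to 0.87 leaving out any 1 library. None of the 4 relations between a subunit gene and an inhibitor gene passed, with r of -0.06 for Nfkbia and Nfkb1 (permutation p = 0.870, adjusted p = 0.998) and 0.32 for Nfkbia and Rel (permutation p = 0.379, adjusted p = 0.517). For Tnfaip3, r was 0.03 with Nfkb1 (permutation p = 0.928, adjusted p = 0.998) and 0.40 with Rel (permutation p = 0.263, adjusted p = 0.492). On deviations from the group means, r was 0.97 for Nfkbia with the immediate-early list and 0.81 for Nfkb1 with Rel. With sham 4 left out, 1 of the 15 relations passed by Pearson's r, that of Nfkbia with the immediate-early list.

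**Figure D5:**
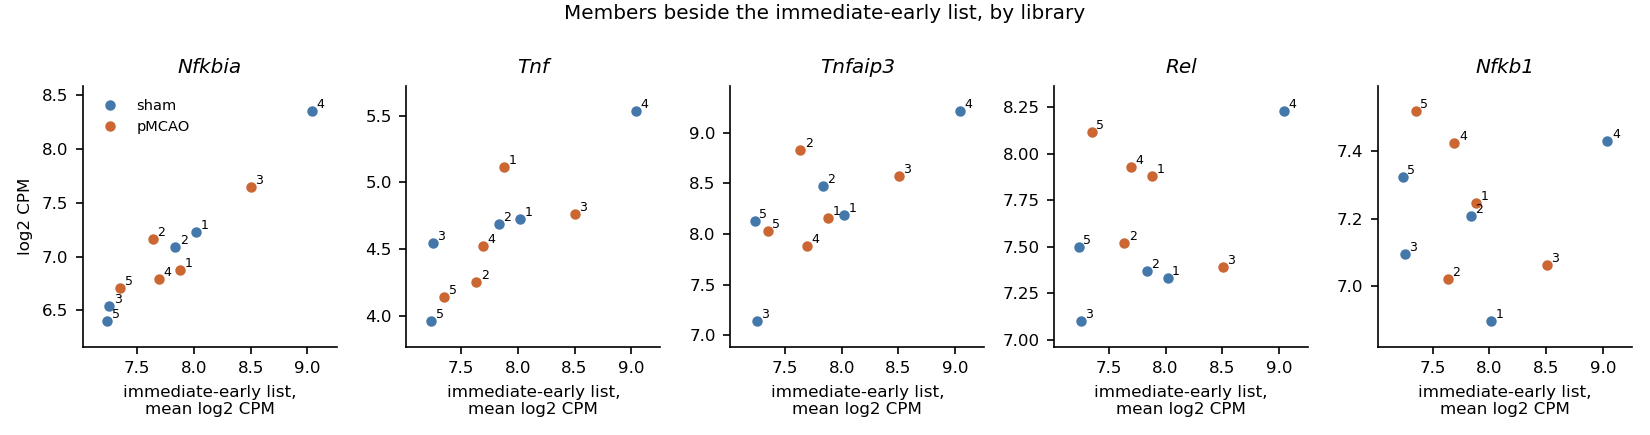
Log2 CPM of 5 members (y) against the mean log2 CPM of the 14 immediate-early genes (x) in each library (blue, sham; orange, pMCAO; numbers are replicates). Nfkbia rises along the x axis with r = 0.97 and Tnf with r = 0.84, while Nfkb1 has r = -0.03 and sham 4 lies at the far right of each panel.

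Likeness over all 16949 genes, by Pearson's r of log2 CPM across the 10 libraries and without a test, put other genes ahead of the members. Tnf was most like Tmem67 (r = 0.94), Gpr65 (0.93) and Gm15964 (0.92), with Nfkbia at rank 338 of 16948. Nfkbia was most like Brpf3 (r = 0.98), Klc4 (0.97) and Plekhg3 (0.97), with Tnfaip3 at rank 220 and Tnf at rank 353. With 10 libraries and so many genes, high values of r are common in such a ranking.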

How the data were processed

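RNA from 5 sham and 5 pMCAO macrophage libraries was sequenced after ribosomal RNA removal. The deposited table holds raw read counts for each gene, whole numbers that the authors left unscaled, and CPM values that they derived from those counts and each library's total. Their table also holds a deposited log2 fold change, mean log2 expression, p-value and FDR per gene, which were not used. The submitters' processing notes name GRCm38, mm10, STAR, featureCounts and limma, whose versions, roles and strand settings are not given in the sources used here. Groups and replicate numbers came from the labels.

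Counts were fitted with edgeR 4.0.16 (glmQLFit, glmQLFTest, TMM, filterByExpr) over 16949 genes with Benjamini-Hochberg adjustment, while 330 genes were filtered out. CPM in the text is TMM-scaled, and log2 CPM used a prior count of 2. Standard errors are the log2 fold change divided by the square root of F. Exact permutation tests covered 252 assignments (smallest two-sided p 0.0079), and correlations used 100000 permutations in Python 3.11.15. No pair of libraries agreed within sampling noise (smallest chi-square per degree of freedom 39.5). The scripts were tested on simulated data. Alternatives were DESeq2 1.42.0, limma 3.58.1 (voom, with and without sample weights), other scalings and filters, a replicate block and leaving out libraries. The members and gene lists were chosen with earlier results of these data known. Non-members were named where an unadjusted p was under 0.05 or where they were the extremes of their pathway list, and by rank in the likeness search. Model p-values set a difference between groups against the spread between these libraries, and permutation p-values come from reassigning the libraries. A library of each group carries the word pool, so that spread may not be between single animals throughout. Exact count intervals cover counting error only.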

Additional observations from a re-analysis of the deposited data

How the results depend on the processing

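In each of the 20 alternative fits, 0 of 9 members and 0 genes of each pathway list were called at an FDR of 0.05. Over all genes DESeq2 called 3 and the other fits 0, including all fits that left out 1 library. Genes at an unadjusted p under 0.05, 799 as reported, numbered 1888 with sample quality weights, 1303 with the replicate block and 462 without both pooled libraries, and 575 (without pMCAO 4) to 1268 (without pMCAO 2) when 1 library was left out. Members at that threshold numbered 2 with the weights (Tnfrsf1a and Rel) and 0 to 1 leaving out 1 library (Rel without sham 4, Tnfrsf1a without sham 5), and by the exact test 0 to 1. Nothing in the labels says that the replicate number marks a shared litter or day, so the main fit did not pair libraries. After each gene's group mean of log2 CPM was subtracted, the deviations of same-numbered libraries correlated from -0.0055 to 0.37, with 3 of 5 pairs over 0.1. On these deviations, 5 of 10 libraries correlated best with their own number in the other group. Whether same-numbered libraries share a batch was not tested. The replicate block called no gene (smallest FDR 0.173, against 0.922 in the main edgeR fit), and moved Tnfaip3 to a log2 fold change of 0.067. Tnfaip3 also reversed with limma-voom (0.070) and with the weights (0.19), Il12b with limma-voom (-0.11) and Il6 without the libraries high in Xist (0.17). Leaving out 1 library gave -0.34 to 0.081 for Tnf, -0.23 to 0.27 for Tnfaip3, -0.41 to 0.21 for Nfkbia, -0.0060 to 0.12 for Nfkb1, -0.34 to 0.060 for Il6 and 0.37 to 1.09 for Il12b. The difference of mean log2 CPM, which weights libraries equally, reversed for Nfkb1 (-0.0084) and Il12b (-0.15) without both pooled libraries and for Il6 (0.16) without the libraries high in Xist. Leaving out 1 library, this difference ran from -0.31 to 0.082 for Tnf, -0.21 to 0.31 for Tnfaip3, -0.27 to 0.22 for Nfkbia, -0.010 to 0.12 for Nfkb1 and -0.37 to 0.083 for Il6. Sham 4 alone turned Tnf and Nfkbia in both measures, and with it left out 2 of 9 members were lower in pMCAO instead of 5, and the median of the members was 0.12. Without sham 3 that median was -0.21. Of the 15 relations, the count past an adjusted p of 0.05 by Pearson's r fell from 6 to 1 with total counts only and to 1 without the libraries high in Xist, and ran from 1 (without sham 4) to 6 leaving out 1 library. By Spearman's rho it fell from 4 to 0 with total counts only, to 1 without both pooled libraries and to 0 without the libraries high in Xist, and ran from 2 to 6. The relation that passed by Pearson's r under these settings was tied to Nfkbia and the immediate-early list, with r from 0.93 to 0.98 over its 15 alternatives. Relations of Nfkb1 that reversed had r near 0 as reported. With total counts only, r was -0.10 for Tnf and -0.067 for Tnfaip3 with Nfkb1. Without the libraries high in Xist it was 0.12 for Nfkbia and 0.10 for the immediate-early list with Nfkb1, and without both pooled libraries 0.036 for that list. Leaving out 1 library, r with Nfkb1 ran from -0.37 to 0.23 for Tnf, -0.24 to 0.18 for Tnfaip3, -0.58 to 0.065 for Nfkbia and -0.47 to 0.15 for the immediate-early list, and r with Rel from -0.11 to 0.57 for Tnf, -0.21 to 0.48 for Nfkbia and -0.13 to 0.55 for the list. The cause of these reversals was not tested. Il12b and Il6 had the fewest counts, down to 7 and 17 in a library, and their intervals admit a change of more than 1 log2 unit. How much of that width is counting error was not tested.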

Other observations

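The ratio of Tnfrsf1b to Tnfrsf1a in CPM, chosen after the values were seen, placed both TNF receptors on a scale that library size does not enter. It was 1.01, 0.959, 1.20, 0.945 and 1.46 in sham 1 to 5 and 1.78, 1.26, 1.34, 1.64 and 1.77 in pMCAO 1 to 5. Sham 5 overlapped the pMCAO range, and the other 4 sham libraries lay below it. The mean log2 ratio was 0.49 higher in pMCAO (two-sided exact permutation p = 0.0317). It was 1 of 36 ratios among the 9 members and 1 of 36 with such a p, and the p adjusted over all 36 was 0.922. The difference was 0.57 without the 2 libraries high in Xist (exact p = 0.0286, the smallest that 4 against 4 can give) and 0.41 without both pooled libraries (exact p = 0.114). Leaving out 1 library gave 0.44 to 0.59, with exact p from 0.0159 to 0.0635, and 6 of these 10 passed no threshold of 0.05. Macrophage and mast cell marker levels also differed between libraries, and their part in this ratio was not tested.

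Il6 and Il12b, whose genes share the NF-kB pathway with Tnf, differed in their likeness to it over the libraries. Pearson's r of log2 CPM with Tnf, without a test, was -0.62 for Il6 and 0.24 for Il12b. A low r with Tnf was not particular to them, at 0.00097 for Nfkb1 and -0.14 for Tnfrsf1b. Sham 4 had the most Tnf at 46.2 CPM and only 1.76 CPM of Il6, and sham 5 had the least Tnf at 15.5 CPM and the most Il6 at 5.92 CPM. The latter library also had the highest mast cell marker sum, 20546 CPM. The relation of Il6 to these markers was not tested.

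Of 36 groups of libraries examined for 1 distant value, 0 held one, where 1.8 would be found by chance. A value counted as distant only where its gap to the next reached 0.71 of the range. For Nfkbia in log2 CPM, sham 4 (8.35) did not reach it beside the next sham library (7.23) and the lowest (6.40). In CPM (327, 150 and 84.1) it did. The count of 0 thus does not show that no library stood apart.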
